A study of Sus scrofa with 15 samples.

Results

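The genes examined were those of peptide presentation by MHC class I molecules, in porcine NK cells. They were the light chain gene B2M, the heavy chain genes SLA-1, SLA-2, SLA-3 and SLA-5, the peptide transporter genes TAP1 and TAP2, the gene of the loading chaperone tapasin TAPBP, and the immunoproteasome genes PSMB8 and PSMB9. They were chosen by symbol, and all 10 had a row among the 29886 genes counted. RNA came from 3 NK cell populations sorted by FACS from the same 5 pigs, which were 6 months old and received no treatment named in the labels, giving 15 libraries. The populations were CD3-CD172a- CD8αhigh NK cells of blood (blood cNK cells), CD3-CD172a- CD8αhigh NK cells of liver (liver CD8αhigh NK cells) and CD3-CD172a- CD8αdim NK cells of liver (liver-resident NK cells, lrNK cells). Each library is a single sort of a single population, the livers were flushed before cell isolation, and pigs are numbered 1 to 5 as the donors in the labels.

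MHC class I molecules display short peptides from the cell's own proteins on its surface. The peptides are cut by the proteasome, carried into the endoplasmic reticulum by the TAP1 and TAP2 transporter, and loaded with the help of tapasin onto a heavy chain paired with B2M. In pigs the heavy chains are called SLA (swine leukocyte antigen), with SLA-1, SLA-2 and SLA-3 as the classical genes and SLA-6, SLA-7 and SLA-8 as the non-classical ones. Interferons induce most of these genes, including the immunoproteasome subunits, which replace their constitutive partners in the proteasome. NK cells are held in check by class I molecules on the cells they meet, and class I molecules that an NK cell itself carries also take part in tuning its responsiveness.

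The SLA rows need care, because these genes are near-identical copies that differ between pigs and lie within each other in the annotation. In Sscrofa11.1 the gene SLA-1 spans chr7:22824137-22920154 and holds the whole of SLA-5 (chr7:22851888-22854782). It shares 3408 bases with SLA-2 (chr7:22916747-22959405), which in turn holds the whole of SLA-3 (chr7:22938211-22942735). How reads that fit several of these genes were counted is not given in the sources used here, so the division of reads among the SLA rows is uncertain and can depend on the alleles of a pig. The other class I genes are less crowded. TAP2 (chr7:25045085-25056915), PSMB8 (chr7:25058456-25061666), TAP1 (chr7:25062772-25071989) and PSMB9 (chr7:25072133-25077508) stand side by side in the class II region, with 143 bases between TAP1 and PSMB9. TAPBP (chr7:29663491-29673453) shares 448 bases with ZBTB22, a row with 723 counts over the 15 libraries, against 3416 counts of TAPBP in the blood libraries alone. B2M has 2 gene models on chromosome 1, chr1:126837721-126844043 and chr1:126865767-126878501, and a single row in the counts. The libraries read transcripts from the 3′ end, so each row reports the reads near the end of a gene's transcripts and not its whole length.

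Library totals ran from 2003499 to 5680221 counts, with a median of 3686363. NK cell markers summed to 3118 to 4294 CPM (counts scaled to a common library size, with TMM factors) in blood cNK, 3571 to 4178 in liver CD8αhigh and 3780 to 5765 in lrNK libraries, and the CD8A transcript was lower in lrNK than in blood cNK cells (edgeR, log2 fold change -3.43, adjusted p = 1.24e-08), as the sort on CD8α sets. The lrNK libraries also held more counts of B cell markers, with a summed level of 247.5 to 719 CPM against 11.3 to 116 in blood cNK and 1.43 to 47.7 in liver CD8αhigh libraries. Of 7 B cell markers listed, 6 had a row, and all 5 that passed the filter on low counts were higher in lrNK cells in both comparisons. CD79A was at 0 in all 15 libraries, and whether reads of this gene could be counted was not tested. Dendritic cell markers summed to 168 to 323 CPM in lrNK against 32.9 to 91.3 and 47.1 to 118 CPM in the other 2 populations, with CLEC9A and CLEC10A at 0 throughout and FLT3 at 0 in all lrNK and blood cNK libraries. That difference rests on 2 of the 5 markers, XCR1 and IRF8, which passed the filter and were higher in lrNK cells in both comparisons. The sort depleted CD3+ cells and CD172a+ cells, CD172a being a surface protein of myeloid cells, and then gated on CD8α. Monocyte and macrophage markers summed to 0 to 25.6 CPM in lrNK, 0 to 6.24 in blood cNK and 0 to 2.93 CPM in liver CD8αhigh libraries, and LYZ, the 1 of 9 that passed the filter, was called higher in lrNK than in liver CD8αhigh cells. T cell markers summed to 109.9 to 593 CPM in lrNK against 636.5 to 1203 CPM in blood cNK and 714 to 1076 CPM in liver CD8αhigh libraries. Of the 3 of 6 that passed the filter, CD3G was called lower in lrNK cells in both comparisons and CD3D and CD3E in neither, and CD4 and CD5 were at 0 throughout. B cells, dendritic cells and monocytes also use the class I genes, and the part of these cells in the lrNK results below was not tested. The lrNK library of pig 3 stood apart from the other lrNK libraries, its counts differing from theirs by 33.2 to 51.3 (chi-square over genes, per degree of freedom) and theirs among themselves by 12.8 to 29. Without it, edgeR called 5 of the 10 class I genes in lrNK against blood cNK cells and 4 against liver CD8αhigh cells. Of all 11180 genes then tested, 2301 and 1764 were called, against 1993 and 1601 of 10939 with all libraries. In sorted bulk samples, a change in the share of a cell type and a change in RNA per cell cannot be told apart.

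In lrNK cells against blood cNK cells, 4 of the 10 class I genes changed. TAP1, TAPBP and PSMB9 were higher in lrNK cells and SLA-3 was lower (edgeR's quasi-likelihood test, adjusted p under 0.05 over all genes tested). Of all 10939 genes tested, 18.2% passed this threshold, 8.62% higher and 9.6% lower. The median log2 fold change of the 10 genes was 0.26, against 0.01 over all genes. The level of 4 of the 10 did not overlap between the 5 lrNK and the 5 blood libraries, against 13.5% of all genes. In lrNK cells against liver CD8αhigh NK cells, 4 of the 10 were again called, all of them higher, namely TAP1, TAPBP, PSMB9 and SLA-5, against 14.6% of all genes and 6.96% called higher. The median log2 fold change was 0.36 (0.02 over all genes), and 3 of the 10 did not overlap, against 11.9% of all genes. Both comparisons use the same 5 lrNK libraries, so they are not independent of each other. In liver CD8αhigh against blood cNK cells, 0 of the 10 were called by edgeR, 0 had an unadjusted p under 0.05, 0 did not overlap (2.01% of all genes), and DESeq2 also called 0 of them. In that comparison 0.064% of all genes passed in edgeR (7 genes, with 549 at an unadjusted p under 0.05, and 24 genes in DESeq2).

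**Figure D1:**
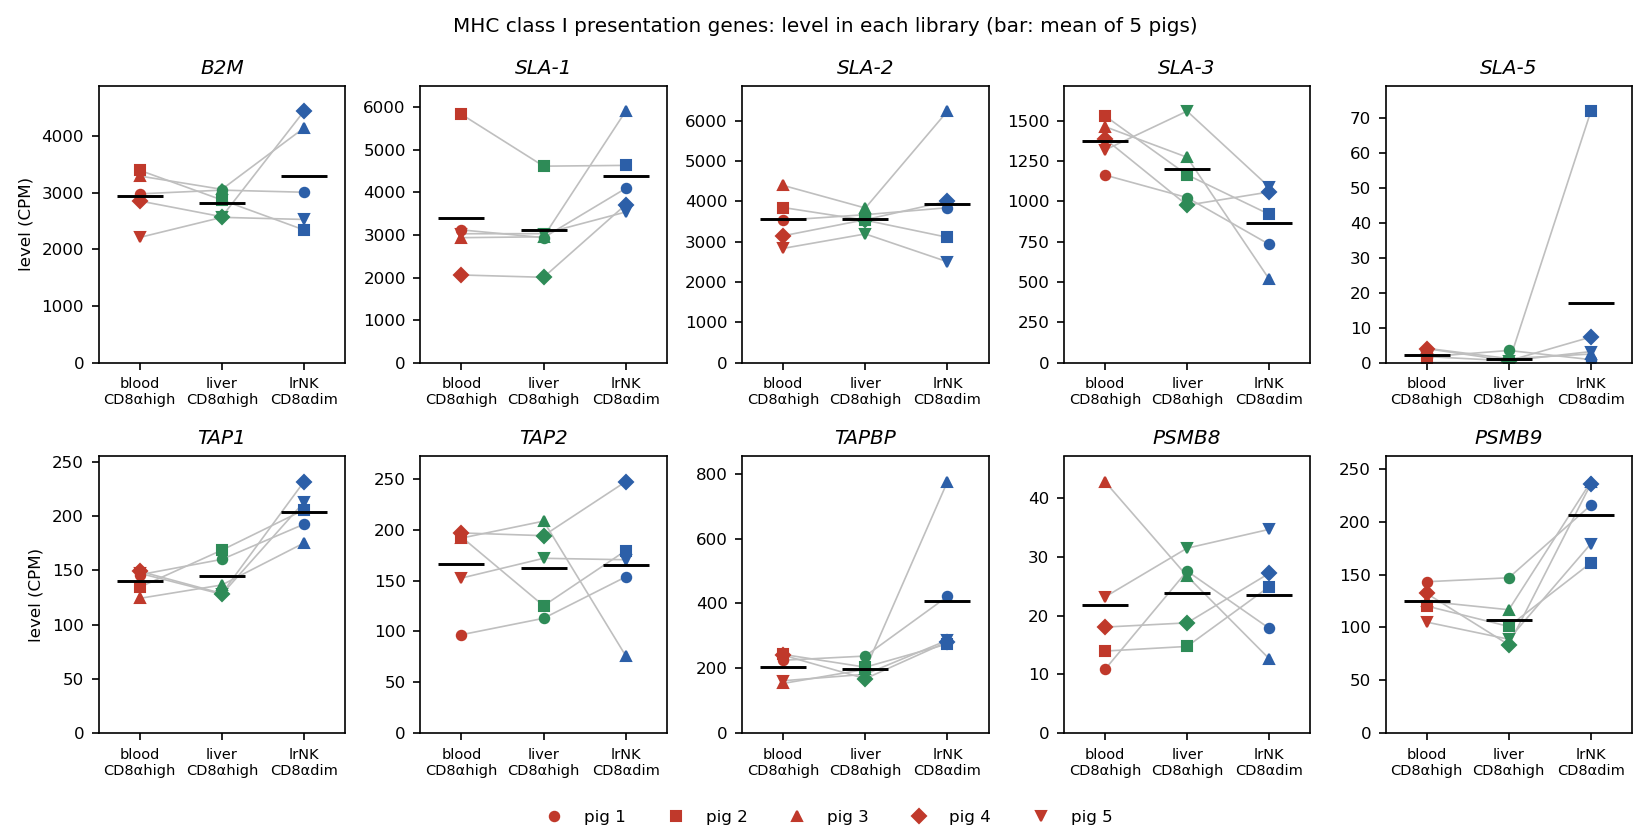
Level of each class I gene in each library, in CPM with TMM scaling (y axis, linear, from 0, with its own range in each panel), in blood CD8αhigh, liver CD8αhigh and lrNK cells (x axis). Symbols are the 5 pigs, grey lines join the libraries of a pig, and black bars are means; TAP1 and PSMB9 in lrNK cells lie above all blood and liver CD8αhigh libraries, and SLA-5 rests on a single lrNK library at 72.0 CPM.

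B2M, the light chain shared by all class I molecules, did not pass the test in any comparison. In pigs 1 to 5 its level was 2979.7, 3395, 3294, 2854 and 2209.9 CPM in blood cNK cells, and 3045, 2872, 3059.6, 2575 and 2564.5 CPM in liver CD8αhigh NK cells. In the lrNK libraries it was 3008, 2342, 4144, 4441 and 2527 CPM. The lrNK libraries spread more widely than the others, with pigs 3 and 4 above every other library and pigs 2 and 5 among the lowest. The log2 fold change of lrNK against blood cNK cells was 0.16 ± 0.17 (SE), with a 95% interval of -0.20 to 0.52 (edgeR, adjusted p = 0.602), and that against liver CD8αhigh NK cells was 0.22, with an interval of -0.14 to 0.59 (adjusted p = 0.486). A rise up to these upper bounds is not excluded at this spread.

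Of the classical heavy chain rows, SLA-3 was lower in lrNK than in blood cNK cells, while SLA-1 and SLA-2 had positive differences that did not pass the test. SLA-3 stood at 1162.5, 1529, 1463, 1388 and 1318 CPM in the blood cNK libraries of pigs 1 to 5 and at 733, 919, 517, 1058 and 1088 CPM in their lrNK libraries. The groups did not overlap, and all 5 pigs were lower in lrNK cells, by a log2 fold change of -0.67 ± 0.18 (SE, 95% interval -1.05 to -0.29; edgeR, adjusted p = 0.0133), which is 1.59-fold lower. Leaving out a single pig ended this call in 2 cases, with an adjusted p of 0.0638 without pig 2 and 0.0538 without pig 3 in edgeR, while without the lrNK library of pig 3 alone it was -0.51 and passed (adjusted p = 0.0235). In liver CD8αhigh cells SLA-3 was at 1023, 1164, 1273, 975 and 1559 CPM, with a mean between those of the other populations and, in pig 5, the highest value of the 15 libraries. The lrNK cells of 4 of 5 pigs were below their liver CD8αhigh cells, and the difference, -0.47 on the log2 scale, did not pass (edgeR, adjusted p = 0.0969).

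SLA-1 varied widely between pigs in both CD8αhigh populations. Its level was 3120.1, 5839, 2937, 2059 and 3029.7 CPM in blood cNK cells, 2938, 4619.5, 2958, 2005 and 3032 CPM in liver CD8αhigh cells, and 4097, 4638, 5914, 3715.5 and 3541 CPM in lrNK cells. Pig 2 was the highest in both CD8αhigh populations, and pig 4 the lowest. SLA-1 was higher in lrNK than in liver CD8αhigh cells in 5 of 5 pigs, with a log2 fold change of 0.49 ± 0.24 that did not pass the unblocked test (edgeR, adjusted p = 0.205). It passed in 2 of 16 alternatives, with the pig as a block, at 0.54 (edgeR, adjusted p = 0.0298), and without pig 2 in the unblocked fit, at 0.66 (adjusted p = 0.0469). In the blocked fit without the lrNK library of pig 3 it was 0.41 and did not pass (adjusted p = 0.0605). Against blood cNK cells SLA-1 was higher in lrNK cells in 4 of 5 pigs, with a log2 fold change of 0.37 (95% interval -0.13 to 0.87; edgeR, adjusted p = 0.337), and without pig 2 it was 0.63 (adjusted p = 0.0475).

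SLA-2 was at 3533, 3849, 4398, 3147.5 and 2835 CPM in blood cNK cells, at 3672, 3534.5, 3837, 3547 and 3193 CPM in liver CD8αhigh cells and at 3845, 3109.9, 6243.5, 4006 and 2502 CPM in lrNK cells. The lrNK libraries held both the highest value (pig 3) and the lowest (pig 5). The log2 fold changes in lrNK cells were 0.15 against each of the other populations (edgeR, adjusted p = 0.664 against blood and 0.709 against liver CD8αhigh), and they were -0.06 and -0.08 when the lrNK library of pig 3 was left out.

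With the classical class I rows summed in each library before the fit (SLA-1, SLA-2 and SLA-3), it no longer matters which of them a read was given to. The sum did not pass the test in any comparison. Its log2 fold change was 0.14 in lrNK against blood cNK cells (95% interval -0.20 to 0.49; edgeR, adjusted p = 0.628), 0.23 against liver CD8αhigh cells (interval -0.12 to 0.57; adjusted p = 0.452), and -0.08 in liver CD8αhigh against blood cNK cells. With SLA-4, SLA-6, SLA-7, SLA-8 and SLA-11 added to the sum, the changes in lrNK cells were 0.22 (edgeR, adjusted p = 0.411) and 0.30 (adjusted p = 0.269).

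The shares of SLA-1, SLA-2 and SLA-3 in the sum of these 3 rows, without SLA-5, are given without a test. SLA-1 took 39.8% ± 8.22 (SD, n = 5) of the 3 rows' counts in blood cNK cells, 38.9% ± 6.82 in liver CD8αhigh cells and 47.9% ± 4.11 in lrNK cells. SLA-3 took 16.9% ± 2.92, 15.3% ± 2.93 and 10.1% ± 4.17. In each of the 5 pigs the SLA-1 share was higher in lrNK than in blood cNK cells, by 1.46 to 13.3 percentage points, and the SLA-3 share was lower, with differences of -12.6 to -3.02 points. The same directions held against liver CD8αhigh cells in 5 of 5 pigs. The SLA-2 share was 43.3%, 45.8% and 42.0%. Pig 2 had the highest SLA-1 share in each population, with 52.05%, 49.6% and 53.5%. The shares rest on 18057 to 40924 summed counts a library, so that the widest exact 95% binomial interval of a share spans 1.46 points, for counting error only. Whether a read shared by these rows was given to 1 of them at random, to both or to none can set such shares, and this was not tested.

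**Figure D2:**
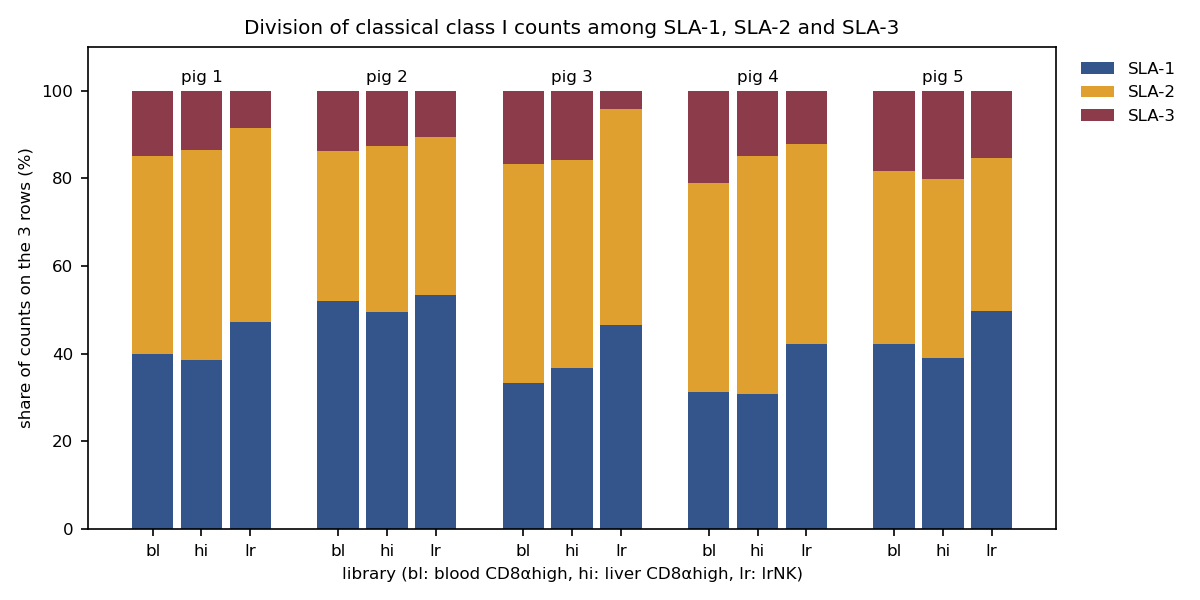
Share of the counts of SLA-1, SLA-2 and SLA-3 taken by each of the 3 rows (y axis, percent), in the blood CD8αhigh (bl), liver CD8αhigh (hi) and lrNK (lr) library of each pig (x axis). In each pig the lrNK bar has the largest SLA-1 part and the smallest SLA-3 part, down to 4.08% in pig 3.

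SLA-5, the remaining heavy chain member, was near the limit of detection except in a single library. It had 6, 0, 15, 11 and 5 counts in the blood cNK libraries of pigs 1 to 5, 10, 0, 4, 3 and 2 counts in the liver CD8αhigh libraries, and 2, 150, 5, 26 and 12 counts in the lrNK libraries. The lrNK library of pig 2 held 72.0 CPM, while the blood and liver CD8αhigh libraries of the same pig held no count, which allows up to 3 counts in each. The log2 fold change against liver CD8αhigh cells was 3.97 ± 1.17 (SE; edgeR, adjusted p = 0.0245), but without the lrNK library of pig 2 it was 1.66 (adjusted p = 0.411) and in the fit blocked by pig it was 2.95 (adjusted p = 0.196). It passed in 8 of 14 alternatives, with log2 fold changes of 1.34 to 5.25 over all of them. The call was also lost without pig 4 (adjusted p = 0.0732) or pig 5 (adjusted p = 0.0674). Against blood cNK cells it was 2.89 and did not pass (edgeR, adjusted p = 0.074), whereas DESeq2 called it (adjusted p = 0.0337) and the alternatives ran from 0.0284 to 0.9. SLA-5 lies wholly inside the annotated span of SLA-1, and pig 2 also had the highest SLA-1 share.

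Of the transporter pair, TAP1 rose in lrNK cells and TAP2 did not pass the test. TAP1 stood at 146, 135, 124, 149 and 147 CPM in blood cNK cells, 160.2, 169, 137, 129 and 128 CPM in liver CD8αhigh cells, and 193, 206, 175, 232 and 213 CPM in lrNK cells. Every lrNK library was above every library of the other populations. The rise was 0.54 ± 0.14 (log2 scale, SE) against blood cNK cells (edgeR, adjusted p = 0.0102) and 0.50 ± 0.14 against liver CD8αhigh cells (adjusted p = 0.0205), or 1.45-fold and 1.41-fold. Against liver CD8αhigh cells the adjusted p was 0.122 without pig 4 and 0.133 without pig 5, and 0.0808 with no filter on low counts, with log2 fold changes of 0.41 to 0.48. The rise against blood cNK cells passed in all 16 alternative fits (highest adjusted p = 0.0491).

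TAP2 was at 96.7, 193, 192, 197 and 152.5 CPM in blood cNK cells, 113, 125, 208.5, 194 and 172 CPM in liver CD8αhigh cells and 154, 179.5, 76.0, 247 and 170.5 CPM in lrNK cells. The 3 ranges overlapped. The lrNK cells differed by a log2 fold change of -0.00 from blood cNK cells (95% interval -0.54 to 0.53; edgeR, adjusted p = 0.996) and of 0.03 from liver CD8αhigh cells (interval -0.51 to 0.56; adjusted p = 0.97). The products of TAP1 and TAP2 form a heterodimer. In the lrNK library of pig 3 TAP2 was at its lowest of the 15 libraries and TAP1 at its lowest among the lrNK libraries.

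TAPBP, the tapasin gene, had the largest rise among the 10 genes other than SLA-5 in the fit of all libraries. Its level was 225, 243, 153, 240.3 and 161 CPM in blood cNK cells, 238, 203, 197, 168 and 181 CPM in liver CD8αhigh cells, and 422, 275, 776, 282 and 287 CPM in lrNK cells. All 5 lrNK libraries were above all 10 others, and pig 3 stood far above the other 4. The log2 fold change was 1.00 ± 0.25 (SE; 95% interval 0.48 to 1.51) against blood cNK cells (edgeR, adjusted p = 0.00648) and 1.05 ± 0.25 against liver CD8αhigh cells (adjusted p = 0.00522). Without the lrNK library of pig 3 these values were 0.65 (edgeR, adjusted p = 0.0106) and 0.68 (adjusted p = 0.00881). PSMB9 then had the larger rise, as its changes were at least 0.66 and 0.81 in every alternative, so the ranking rests on that library. Without all 3 libraries of pig 3 the change against blood cNK cells was 0.54 and no longer passed (adjusted p = 0.0542). Of the 5 lrNK libraries, that of pig 3 had the lowest summed B cell marker level, at 247.5 CPM, and the second highest summed dendritic cell marker level, at 255 CPM, and the part of either in the TAPBP level was not tested.

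**Figure D3:**
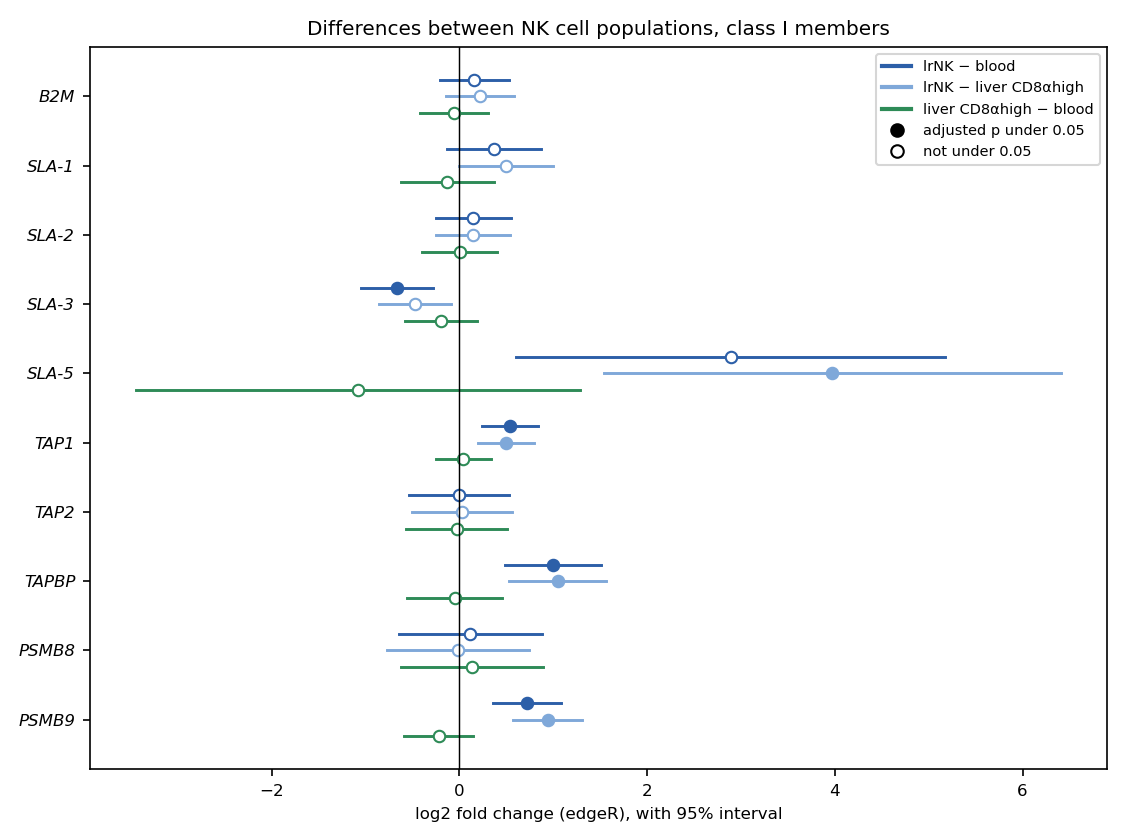
Log2 fold change of each class I gene in each of the 3 comparisons (x axis, edgeR), with its unadjusted 95% interval as a line. Filled points have an adjusted p under 0.05; TAP1, TAPBP and PSMB9 are filled in both lrNK comparisons, SLA-3 against blood and SLA-5 against liver CD8αhigh cells, and no point is filled for liver CD8αhigh against blood cells.

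Of the immunoproteasome members, PSMB9 rose in lrNK cells and PSMB8 did not pass the test. PSMB9, the gene of the subunit beta-1i, was at 143, 120.3, 125, 132 and 105 CPM in blood cNK cells, 147, 101, 117, 83.6 and 88.9 CPM in liver CD8αhigh cells, and 216, 161, 238, 236 and 179 CPM in lrNK cells. The lrNK libraries did not overlap with the others. The rise was 0.72 ± 0.18 (log2 scale, SE) against blood cNK cells (edgeR, adjusted p = 0.00585) and 0.94 ± 0.18 against liver CD8αhigh cells (adjusted p = 0.000673), or 1.65-fold and 1.92-fold, in 5 of 5 pigs each. PSMB9 passed in both comparisons in each of the 16 alternatives, with log2 fold changes of 0.66 to 0.81 and 0.81 to 1.08.

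PSMB8, the gene of the subunit beta-5i, was a low row with 26 to 158 counts a library. Its level was 10.8, 14.0, 42.9, 18.1 and 23.2 CPM in blood cNK cells, 27.6, 14.8, 26.8, 18.8 and 31.5 CPM in liver CD8αhigh cells and 17.9, 25.0, 12.7, 27.2 and 34.7 CPM in lrNK cells. Pig 3 went from the highest blood value to the lowest lrNK value, while the other 4 pigs were higher in lrNK than in blood cNK cells. The log2 fold change was 0.12 (95% interval -0.64 to 0.88; edgeR, adjusted p = 0.882) against blood cNK cells and -0.01 (interval -0.77 to 0.75; adjusted p = 0.988) against liver CD8αhigh cells. A rise as large as that of PSMB9 against blood cNK cells lies within the first interval.

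PSMB10 (beta-2i), the other immunoproteasome subunit, was at 40.6, 54.0, 44.0, 40.1 and 55.3 CPM in blood cNK cells, 37.3, 44.6, 39.0, 43.8 and 34.2 CPM in liver CD8αhigh cells and 51.1, 67.7, 66.2, 62.9 and 54.1 CPM in lrNK cells. It was higher in lrNK than in liver CD8αhigh cells in 5 of 5 pigs, without overlap (log2 fold change 0.60; edgeR, adjusted p = 0.0333), and passed in 6 of 16 alternatives there, each pig's absence ending the call at adjusted p of 0.0623 to 0.115. Over the 16 alternatives its log2 fold change was 0.55 to 0.63. Against blood cNK cells the difference was 0.37 (adjusted p = 0.198). The constitutive partners PSMB5, PSMB6 and PSMB7 did not pass in either lrNK comparison, with log2 fold changes of 0.36, -0.16 and -0.17 against blood cNK cells (edgeR, adjusted p = 0.404, 0.771 and 0.822) and of -0.16, -0.08 and -0.42 against liver CD8αhigh cells.

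A ratio within each library does not depend on the scaling between libraries. The log2 ratio of the summed immunoproteasome rows (PSMB8, PSMB9 and PSMB10) to the summed constitutive rows (PSMB5, PSMB6 and PSMB7) was 1.16, 0.68, 0.84, 0.59 and 1.12 in the blood cNK libraries of pigs 1 to 5. It was 0.85, 0.43, 0.44, 0.15 and 0.62 in the liver CD8αhigh libraries and 1.87, 1.05, 2.38, 1.07 and 1.35 in the lrNK libraries. Every lrNK library was above every liver CD8αhigh library, while the lowest lrNK values, in pigs 2 and 4, were below the highest blood values. The mean difference of lrNK from liver CD8αhigh cells was 1.04 (two-sided exact permutation test, p = 0.00794, the smallest that 252 splits of 5 against 5 allow, adjusted over the 3 comparisons 0.0238). That of lrNK from blood cNK cells was 0.67 (exact permutation test, p = 0.0476, adjusted 0.0714) and did not pass after adjustment, although 5 of 5 pigs were higher. Without any single pig the unadjusted p against blood cNK cells was 0.0857 to 0.171, and without the lrNK library of pig 3 the difference was 0.46 (exact permutation test, p = 0.0794). Liver CD8αhigh cells were below blood cNK cells in 5 of 5 pigs, by 0.38 (exact permutation test, p = 0.0714). Within pigs, an exact sign-flip test of the 5 paired differences gave p = 0.0625 in each of the 3 comparisons. That is the smallest value that 32 sign patterns allow, so this sign-flip test cannot pass here, whatever the size of the differences.

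Taken by pair of subunits, PSMB9 over PSMB6 differed in lrNK cells by 1.03 on the log2 scale from blood cNK cells, which did not pass after adjustment over the 3 comparisons (exact permutation test, p = 0.0476, adjusted 0.0714), and by 1.20 from liver CD8αhigh cells (p = 0.0159, adjusted 0.0477). The ratio was above both in 5 of 5 pigs, and the paired sign-flip test cannot pass here either. PSMB10 over PSMB7 differed by 0.62 (exact permutation test, p = 0.317) and 1.11 (p = 0.0635, adjusted 0.191), and PSMB8 over PSMB5 by -0.11 (p = 0.825) and 0.16 (p = 0.802). The denominators were small in some libraries, with 37 counts of PSMB6 and 16 of PSMB7 in the lrNK library of pig 3.

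**Figure D4:**
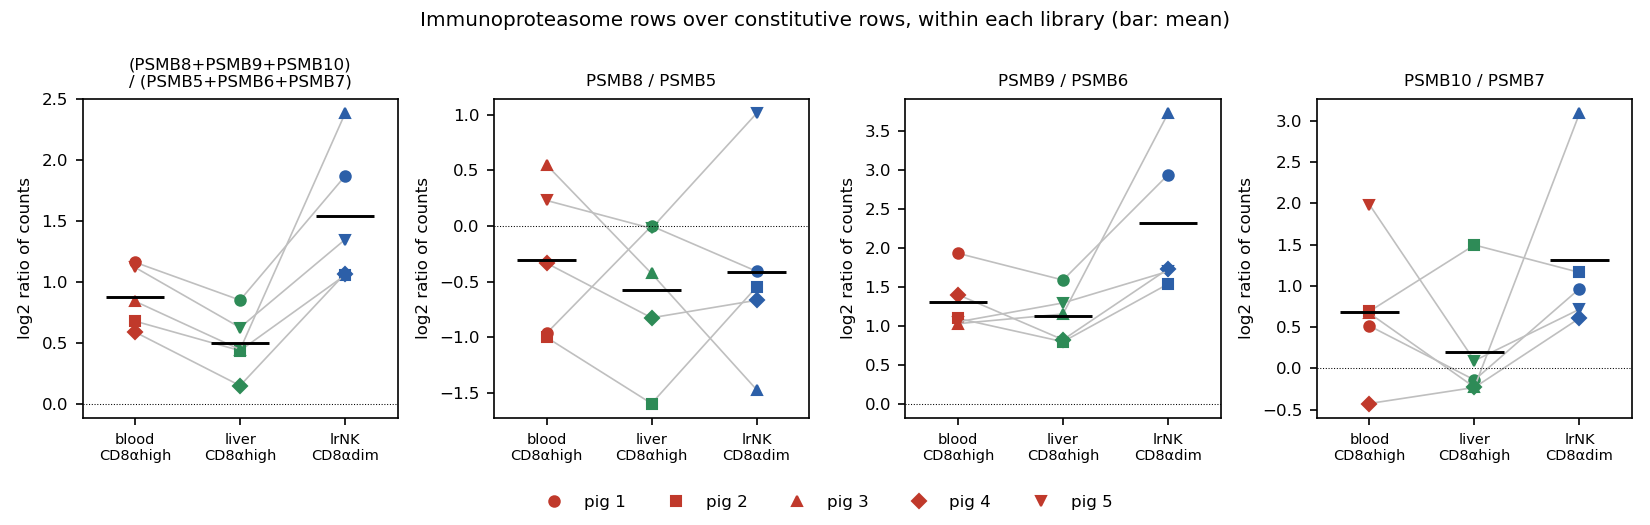
Log2 ratio of immunoproteasome to constitutive counts (y axis) in blood CD8αhigh, liver CD8αhigh and lrNK libraries (x axis), for the 3 subunits summed and for each pair. Symbols are pigs, grey lines join a pig's libraries and black bars are means; the summed ratio is above all liver CD8αhigh values in each lrNK library, while the PSMB8 to PSMB5 ratios overlap.

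The wider class I pathway was described with a list of 63 further genes, of which 59 had a row and 57 passed the filter on low counts. In lrNK against blood cNK cells, 7 of the 57 were higher and 0 lower (8.62% and 9.6% of all genes), with a median log2 fold change of 0.26 (0.01 over all genes). Against liver CD8αhigh cells, 6 were higher and 0 lower (6.96% and 7.68% of all genes), with a median of 0.17. In liver CD8αhigh against blood cNK cells 0 were called by edgeR in either direction. By role, in lrNK against blood cNK cells, 2 of 5 further heavy chain rows, 2 of 8 loading genes, 1 of 4 immunoproteasome and PA28 genes, 1 of 11 other 20S subunits and 1 of 5 export and turnover genes were higher. Of the 8 peptide-trimming genes, the 3 constitutive catalytic subunits and the 13 regulators, 0 were called by edgeR, and no gene of the list was called lower.

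The non-classical heavy chain row SLA-6 (chr7:23645335-23649342) had a larger log2 fold change in lrNK cells than any classical row, a difference between rows that was not tested. Its level was 308, 405, 402, 246 and 329.9 CPM in blood cNK cells, 395, 325, 361, 285 and 282 CPM in liver CD8αhigh cells and 986, 649, 1209, 955 and 756 CPM in lrNK cells. All lrNK libraries were above all others, by a log2 fold change of 1.43 ± 0.18 (SE) against blood cNK cells (edgeR, adjusted p = 6.92e-06) and 1.47 ± 0.18 against liver CD8αhigh cells (adjusted p = 6.37e-06), and both passed in all 16 alternatives. The neighbouring rows SLA-7 and SLA-8 did not pass, with log2 fold changes of -0.27 each against blood cNK cells (adjusted p = 0.6 and 0.665) and of -0.44 and -0.30 against liver CD8αhigh cells (adjusted p = 0.373 and 0.675). CD1D, a class I-like gene that presents lipids and also pairs with B2M, was at 169 to 246 CPM in blood cNK, 175 to 277 in liver CD8αhigh and 365 to 575 CPM in lrNK cells. It rose by 1.05 on the log2 scale in both lrNK comparisons (edgeR, adjusted p = 8.84e-05 and 9.88e-05) and passed in all 16 alternatives of each. B cells also express CD1D.

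Among loading chaperones, CALR (calreticulin) rose by 0.77 on the log2 scale against blood cNK cells (edgeR, adjusted p = 0.00496) and 0.67 against liver CD8αhigh cells (adjusted p = 0.0153). HSPA5, the general chaperone BiP of the endoplasmic reticulum, rose by 0.78 against blood cNK cells (edgeR, adjusted p = 0.0217). Its difference from liver CD8αhigh cells, 0.64, did not pass (adjusted p = 0.0714). The latter passed in 3 of 16 alternatives, with log2 fold changes of 0.22 to 0.73 over all of them. Both genes had their highest value in the lrNK library of pig 3, 995 CPM for CALR and 1653 CPM for HSPA5. Without pig 3, the change of HSPA5 against blood cNK cells was 0.32 (adjusted p = 0.14) and that of CALR against liver CD8αhigh cells 0.42 (adjusted p = 0.0944). Without that lrNK library alone these changes were 0.39 (edgeR, adjusted p = 0.0369) and 0.44 (adjusted p = 0.0326). HM13, the signal peptide peptidase gene, also had its highest value there, with 40.4 CPM in lrNK cells of pig 3 against 5.06 to 13.3 CPM in the other lrNK libraries. Its rise of 1.62 against blood cNK cells (edgeR, adjusted p = 0.0368) passed in 8 of 16 alternatives, with log2 fold changes of 0.98 to 2.04 over all of them. It did not pass, for example, in the blocked fit (1.46, adjusted p = 0.0777) or without pig 2 (1.68, adjusted p = 0.0925), pig 3 (0.98, adjusted p = 0.258) or pig 5 (1.51, adjusted p = 0.118).

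POMP, the proteasome assembly factor, rose by 1.27 on the log2 scale against blood cNK cells (edgeR, adjusted p = 0.000266) and by 0.73 against liver CD8αhigh cells (adjusted p = 0.0274). PSMA1, a structural subunit of the 20S core, rose by 0.67 (adjusted p = 0.00381) and 0.53 (adjusted p = 0.0236). Against blood cNK cells both passed in all 16 alternatives, and against liver CD8αhigh cells each passed in 10. There the leave-one-pig values of POMP were 0.64 to 0.75 without pigs 1, 3, 4 or 5, with an adjusted p of 0.0562 to 0.107, and PSMA1 was not called without pig 1 (adjusted p = 0.0843), pig 2 (0.0952) or pig 4 (0.151).

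None of the 3 transcriptional regulators named passed the edgeR test with all libraries. NLRC5, the transactivator of class I genes, was at 26.3 to 37.9 CPM in blood cNK and 24.5 to 55.0 CPM in lrNK cells (log2 fold change 0.39; edgeR, adjusted p = 0.325). IRF1 differed by 0.18 (edgeR, adjusted p = 0.483) from blood cNK and by -0.16 (adjusted p = 0.582) from liver CD8αhigh cells, and NLRC5 by 0.21 (adjusted p = 0.682) from the latter. RFX5, a subunit of the factor that binds class I and class II promoters, differed by 0.90 (adjusted p = 0.0878) against blood cNK and 0.56 (adjusted p = 0.351) against liver CD8αhigh cells. Its lrNK library of pig 3, at 12.2 CPM, was far below the 49.8 to 95.5 CPM of the others, and without that library both differences passed, at 1.17 (adjusted p = 0.0012) and 0.83 (adjusted p = 0.0205).

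**Figure D5:**
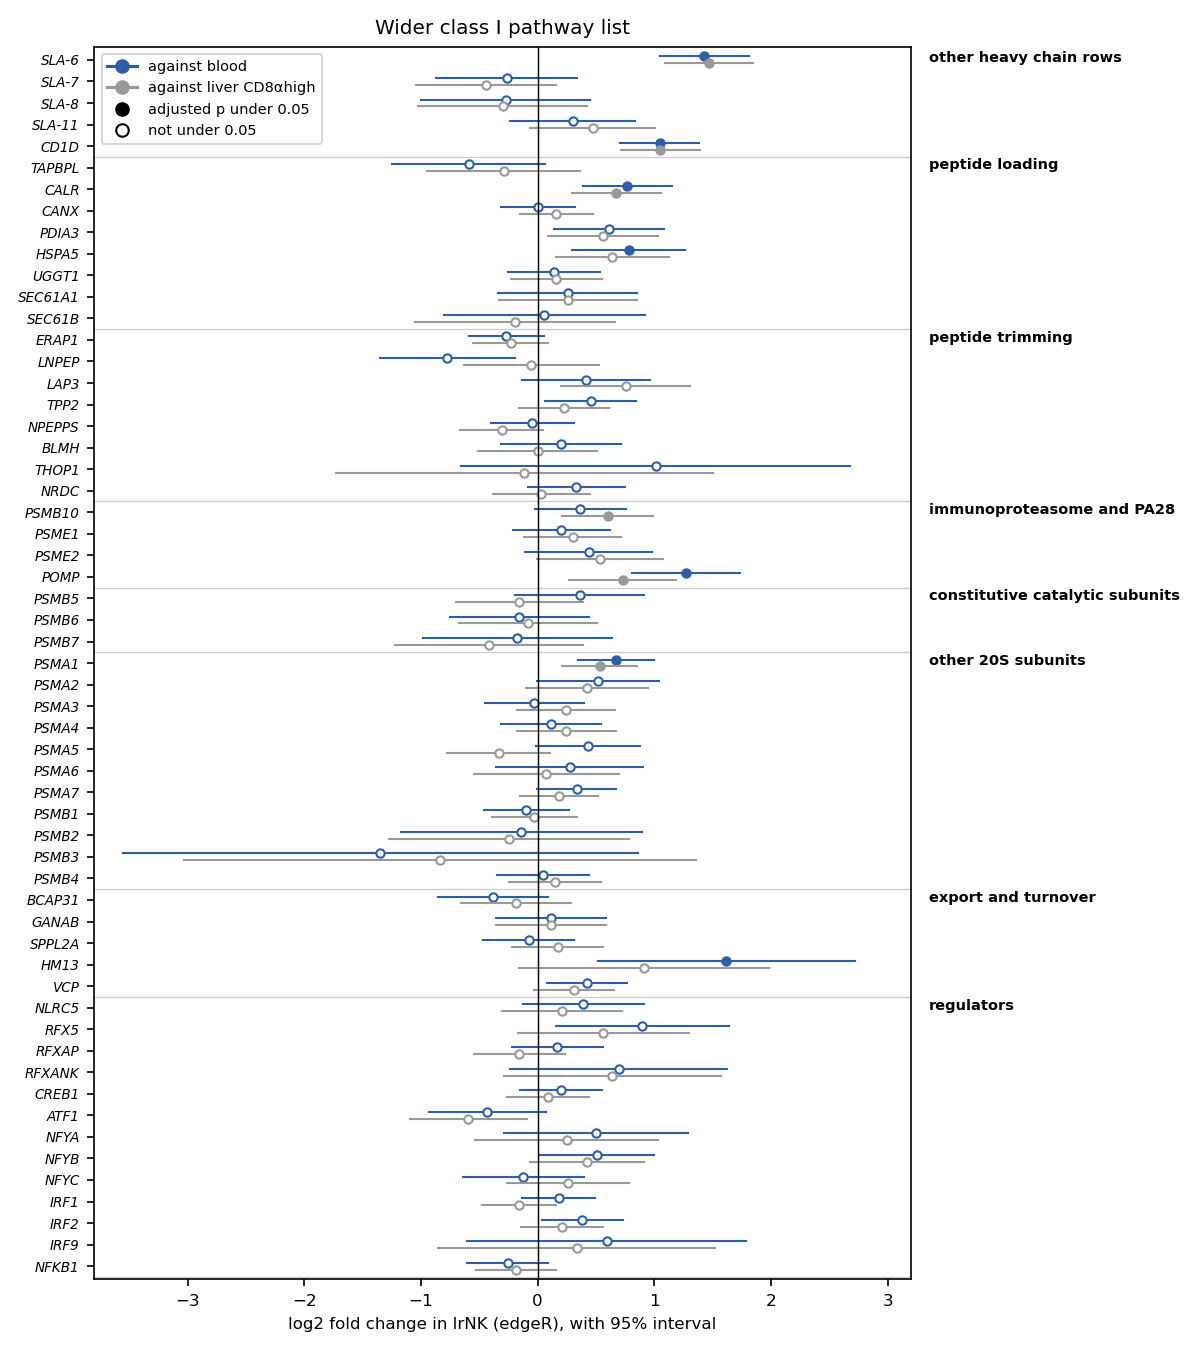
Log2 fold change (x axis, edgeR) in lrNK cells against blood cNK cells (blue) and against liver CD8αhigh cells (grey) for the wider class I pathway list, by role, with unadjusted 95% intervals. Filled points have an adjusted p under 0.05; all filled points lie to the right of 0, with SLA-6 at 1.43 and 1.47.

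The genes also differed in how much of their variation lay between populations and how much between pigs. In a balanced split of the sums of squares of log2(CPM + 1) over the 15 libraries, the population held 76.2% for TAP1, 75.7% for PSMB9, 55.7% for TAPBP and 53.3% for SLA-3, against a median of 21.5% over all genes tested. The pig held 65.4% for SLA-2 and 53.2% for SLA-1, against a median of 25.3%. For B2M, TAP2, PSMB8 and SLA-5 the part left over was 50.2%, 62.4%, 68.4% and 67.3% (median 44.3%), and for B2M the pig held 41.9%. SLA-6 was at the population end, with 86.9%. These percentages describe the same libraries as the tests above and carry no test of their own.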

How the data were processed

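RNA of the 3 sorted populations of 5 pigs was extracted with the RNeasy kit and sequenced with the QuantSeq 3′ forward kit. The authors trimmed the reads and aligned them with HISAT2 (version not given) to Sscrofa11.1, and deposited raw counts of reads per gene for each of the 15 libraries. Which tool counted the reads, and how it treated strand and multiply aligned reads, is not given in the sources used here, so overlapping and near-identical genes are uncertain. Each of the 15 columns carries the name that the labels give to a donor's population.

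Counts were fitted in R 4.3.3 with edgeR 4.0.16 (TMM, default filter on low counts by population, quasi-likelihood test, all 15 libraries in 1 fit), with Benjamini-Hochberg adjustment over 10939 genes. Standard errors were derived as the absolute log2 fold change over the root of F. Levels are CPM on TMM-adjusted totals, which give no error for a single library beyond its counting error. Ratios were tested with two-sided exact permutation tests (Python 3.11.15, scipy 1.17.1), and figures drawn with matplotlib 3.10.9. The scripts were tested on simulated data. Positions come from a RefSeq table of Sscrofa11.1, which gives no strand and matched 29862 of 29886 symbols. Alternatives were DESeq2 1.42.0, edgeR with the size factors of DESeq2, no filter or a stricter one, robust dispersion, other thresholds, the 2 populations alone, the pig as a block, and leaving out each pig. Leaving out single libraries was added after seeing the data.

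The pairing by pig comes from the donor numbers in the labels and the study's methods, by which blood and liver came from the same animals. Deviations from the population means had a mean correlation of 0.107 within pigs (15 pairs, -0.0191 to 0.193) and -0.0265 between pigs (60 pairs). Same-population libraries differed by more than sampling noise (chi-square per degree of freedom of 9.82 or more). The members and all gene lists were chosen with earlier results of these data known. Named genes are the 10 members, 10 fixed genes of the wider list (SLA-6, SLA-7, SLA-8, PSMB10, PSMB5, PSMB6, PSMB7, NLRC5, IRF1 and RFX5), and the 6 others of that list with the largest change among those called in each comparison. CD8A and the marker genes are named only as checks of the sort. Of the wider list, MARCHF9, SLA-9, MR1 and MIC2 were not found under these symbols. 1 further gene of the wider list is not reported here and was left out of its counts.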

Additional observations from a re-analysis of the deposited data

Results flagged for a closer look

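A gap test (Dixon's, 95% critical value 0.71 for 5 samples) was run on the highest and lowest library of each of the 10 class I genes in each population. It marked 2 of 30 groups, and chance alone marks about 1.5. SLA-1 in the blood cNK library of pig 2 was at 5838.9 CPM, while the other 4 blood libraries held 2059 to 3120.1 CPM. Pig 2 also had the highest SLA-1 level in liver CD8αhigh cells, 4619.5 CPM. SLA-5 in the lrNK library of pig 2 was at 72.0 CPM (150 counts), while the other 4 lrNK libraries held 0.83 to 7.30 CPM. The blood and liver CD8αhigh libraries of that pig had no SLA-5 count.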

How the results depend on the processing

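At an adjusted p under 0.01 in place of 0.05, 2 class I genes were called in each lrNK comparison, and the genes called fell to 1199 against blood cNK, 947 against liver CD8αhigh cells and 0 between liver CD8αhigh and blood cNK cells (from 1993, 1601 and 7). In the last comparison, the count was 24 with DESeq2, 18 with no filter on low counts, 4 with robust dispersion, 16 with only the 2 populations and 19 with the replicate block without the lrNK library of pig 3. When a pig or a single library was left out, 2 to 5 class I genes were called in lrNK against blood cNK cells (2 without pig 3) and 2 to 4 against liver CD8αhigh cells (2 without pig 4 or 5). Over all genes, 1472 (without pig 5) to 2301 were then called in lrNK against blood cNK cells, with 1951 of 11003 without pig 3. Against liver CD8αhigh cells the count was 1051 of 10953 (without pig 5) to 1764, with 1227 of 10968 without pig 4. Between liver CD8αhigh and blood cNK cells it was 0 (without pig 2) to 12.

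Pairing by pig changed the call of SLA-1 (0.54) and SLA-5 (2.95) against liver CD8αhigh cells and of HM13 (1.46) against blood cNK cells, and of no other named gene. The exact sign-flip test of the paired ratio, at differences of 0.67 and 1.04, cannot pass in 5 pigs. The ratio in lrNK against blood cNK cells ran from 0.45 to 0.78 in the leave-outs, without passing, was -0.11 for PSMB8 over PSMB5 and 0.62 for PSMB10 over PSMB7, and against liver CD8αhigh cells these were 0.16 and 1.11. For each change of call named here, the cause was not tested.

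Signs turned only for genes that passed no test in that comparison. TAP2 in lrNK against blood cNK cells was 0.0049 with DESeq2's size factors, 0.0039 with DESeq2, 0.011 with the stricter filter, 0.0037 with the replicate block and 0.29 with the block without the lrNK library of pig 3, and -0.13 to 0.23 in the leave-outs. Under that same reduced block SLA-2 was -0.011 and -0.040, PSMB8 0.30, PSMB6 0.083 and 0.13, and PSMB7 0.17. PSMB8 against liver CD8αhigh cells was 0.0019 with the stricter filter and 0.020 with the block. In the leave-outs against blood cNK cells SLA-2 ran from -0.063 to 0.25, PSMB8 from -0.035 to 0.67, SLA-7 from -0.61 to 0.044, SLA-8 from -0.62 to 0.020, PSMB6 from -0.38 to 0.11 and PSMB7 from -0.41 to 0.077. Against liver CD8αhigh cells SLA-2 ran from -0.079 to 0.23, TAP2 from -0.093 to 0.31, PSMB8 from -0.17 to 0.18, PSMB6 from -0.31 to 0.14 and NLRC5 from -0.0036 to 0.39. Between liver CD8αhigh and blood cNK cells SLA-2 ran from -0.038 to 0.062, TAP1 from -0.034 to 0.11, TAP2 from -0.077 to 0.11, TAPBP from -0.14 to 0.066 and PSMB8 from -0.086 to 0.49. Depth limits low rows such as SLA-5, HM13 and PSMB8, with 0 to 150, 7 to 83 and 26 to 158 counts a library.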
